A study of Neurospora crassa with 18 samples.

Results

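Wild-type *Neurospora crassa* mycelia held for 4 h without phosphate were compared with wild-type mycelia held for 4 h with 7 mM phosphate. The members of this comparison are the 6 libraries of Experiment 1, 3 from starved cultures (0 mM) and 3 from cultures with 7 mM phosphate, of 18 libraries in the series. All 9774 genes of the expression table were included, and the 8396 that averaged 1 TPM or more at 0 mM or at 7 mM were tested. Both groups were strain FGSC 2489, *mat A*, with no introduced mutation. Each culture was a well of a 24-well plate. Conidia had been grown for 24 h in Vogel's medium with 2% sucrose at 25 °C, in constant light with shaking. The mycelia were then washed 3 times in Fries medium of the matching phosphate content and kept in it until harvest. The other libraries of the series come from starved wild type and from deletion mutants of the regulators *nuc-1* and *nuc-3* in Experiments 2 and 3. They are used here only for a description without tests and in an alternative fit over all 18 libraries.

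Phosphate is needed for nucleic acids, phospholipids, ATP and phosphorylated metabolites, and ribosomal RNA holds a large part of the phosphate of a growing fungal cell. Filamentous fungi that run out of phosphate make secreted phosphatases, nucleases and high-affinity transporters, and in *N. crassa* this programme is under the transcription factor NUC-1. Ribosomal protein genes are among the most highly transcribed genes of growing hyphae, so a change in them alters the share that is left for every other transcript.

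RNA was poly(A)-enriched and read at the Joint Genome Institute on 1 platform, with 3 independently inoculated cultures per condition. The deposited values are TPM, shares of a library that add up to 1000000, so that the read depth is unknown and a higher share does not say that a cell holds more of a transcript. Total RNA per cell was not measured, and in these bulk samples fewer cells of a type cannot be told apart from less RNA per cell. Log2 values of the tested genes correlated at 0.983 or more among starved libraries, at 0.995 or more among 7 mM libraries, and between 0.87 and 0.885 across conditions. The starved cultures differed more from each other, with a median SD per gene on the log2 scale of 0.117 among them and 0.0665 among 7 mM cultures. For single genes the libraries were rescaled by the median ratio of their genes to the geometric mean, and log2(rescaled TPM + 1) was tested with limma. A gene was called at 4-fold where its rescaled means differed 4-fold or more, the adjusted p was under 0.05 and 1 of the means reached 10 TPM. Calls at 2-fold used the same rule with a ratio of 2. Shares of a library were compared with an exact permutation test of 3 libraries against 3, which cannot give a p below 0.10.

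The starved mycelia had a much flatter pool of messenger RNA. Transcripts equal to 38.3% of the TPM total belonged to other genes at 0 mM than at 7 mM, when the condition means were set against each other. Between single libraries of different conditions this portion was 36.8% to 40.2%, whereas it was 5.62% to 10.9% between starved libraries and 2.43% to 3.09% between 7 mM libraries. The most abundant genes making up 50% of the TPM numbered 355, 304 and 325 in the starved libraries, against 129, 133 and 137 in the 7 mM libraries. The number needed for 90% of the TPM was 3127, 2991 and 3019 at 0 mM and 2426, 2465 and 2482 at 7 mM. Neither measure overlapped between conditions (exact permutation p = 0.10, two-sided, the smallest possible). The 100 most abundant genes held 32.0, 34.3 and 32.9% of the TPM at 0 mM, against 46.1, 45.6 and 45.2% at 7 mM. The share of the 10 most abundant genes overlapped between conditions, at 12.5, 15.2 and 13.4% in starved libraries and 14.2, 13.9 and 13.9% in 7 mM libraries (exact permutation p = 0.70).

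Most of this flattening was in 1 gene class. When the 81 genes listed for the cytosolic ribosome were left out, 50% of the remaining TPM lay in 335, 286 and 309 genes at 0 mM and in 286, 290 and 284 genes at 7 mM. These ranges overlapped (exact permutation p = 0.30), as did those for 90% of the TPM, with 3098, 2982 and 3022 genes at 0 mM and 2972, 2999 and 2992 at 7 mM. Outside the list, the share of the 100 most abundant genes still did not overlap between conditions. It was 32.8, 35.4 and 34.0% at 0 mM and 36.0, 35.8 and 36.1% at 7 mM (exact permutation p = 0.10). Of the top 100 genes by mean TPM, 3 were on the ribosome list at 0 mM and 60 at 7 mM, and only 31 genes were in the top 100 of both. At the low end, 6509, 6407 and 6428 genes exceeded 10 TPM in the starved libraries, against 5905, 5942 and 5954 in the 7 mM libraries. A larger mean share at 0 mM than at 7 mM was held by 6309 of the 8396 tested genes, or 75.1%. The rescaling removes this excess: the middle gene of all tested ones had a log2 fold change of 0.41 for TPM as deposited and 0.002 after it.

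**Figure D1:**
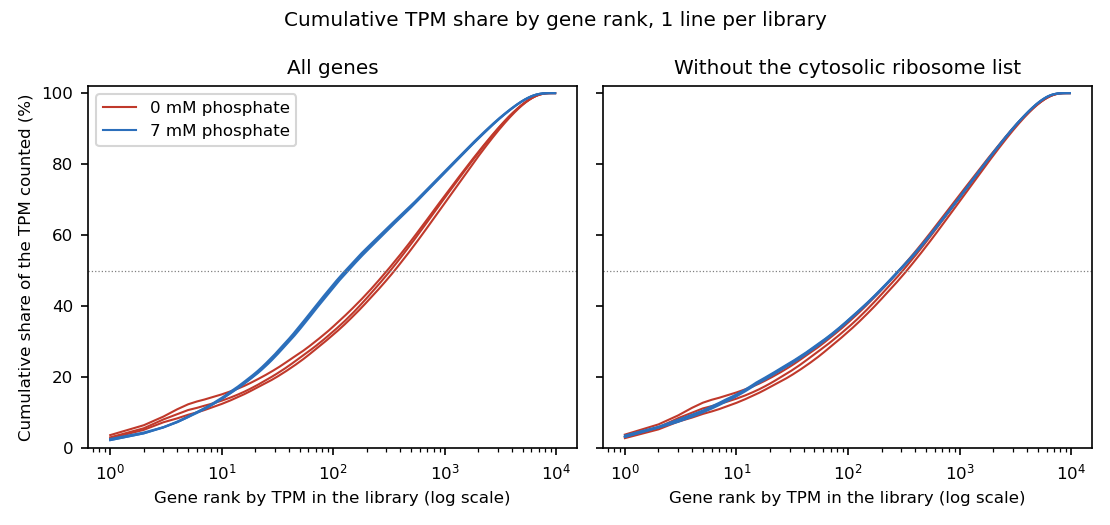
Cumulative share of the TPM (%) against gene rank on a log axis, 1 line per library, for all genes (left) and without the cytosolic ribosome list (right). On the left, starved libraries reach 50% at 304 to 355 genes and 7 mM libraries at 129 to 137, and on the right the lines of both conditions lie close together.

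After rescaling, nearly as many genes rose as fell, a balance that follows largely from the scaling, which sets the middle gene near no change. At 4-fold, 315 genes were called higher (3.75% of those tested) and 301 lower (3.59%), and at 2-fold 854 were higher (10.2%) and 857 lower (10.2%). With TPM as deposited the split was 483 higher and 219 lower at 4-fold, and 1405 higher and 506 lower at 2-fold. All 854 genes called 2-fold higher after rescaling kept that call, whereas 506 of the 857 lower calls did. By adjusted p alone, 2877 genes (34.3%) were higher and 2951 (35.1%) lower, and differences of this kind can be small.

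Loss and gain were spread over genes unequally. The TPM lost at 0 mM came from few genes, with 31 genes giving 50% of the loss and 63.3% of it falling in the ribosome list. The TPM gained went to many, with 114 genes taking 50% of the gain and the 10 largest gainers 22.1% of it. Genes called at 4-fold in the upward direction took 35.8% of the gain, and 43.1% went to genes with no 2-fold call. The genes named for any reason in the paper that reported these data, phosphatases and transporters included, took 9.46%.

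The largest gains in TPM were not in phosphate acquisition genes. The gene that gained most was *ccg-1* (NCU03753, chromosome V, 2302672 to 2303443 of RefSeq assembly NC12), a clock-controlled and glucose-repressible gene. It had 24068, 27781 and 25631 TPM at 0 mM, against 1626, 1772 and 1996 TPM at 7 mM. All 3 starved libraries lay far above the 7 mM libraries, and the rescaled means differed 10.6-fold (log2 fold change 3.40 with SE 0.147, adjusted p = 1.6e-06 by limma). Second was *ccg-16* (NCU05495, chromosome VI, 1732736 to 1733564), another clock-controlled gene, with 28123, 24362 and 24900.3 TPM at 0 mM, against 8649, 7713 and 8499 TPM at 7 mM. It was already abundant at 7 mM, and its rise was 2.28-fold (log2 fold change 1.19 with SE 0.157, adjusted p = 0.00041 by limma).

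The next gains were in genes linked to reproductive structures. The gene *app* (NCU04533, chromosome VII, 1539827 to 1540778), annotated as abundant perithecial protein, after the sexual fruiting body, had 10004, 13878 and 11692 TPM at 0 mM, against 61.2, 49.9 and 65.2 TPM at 7 mM. It rose 148-fold (log2 fold change 7.18 with SE 0.167, adjusted p = 1.8e-07 by limma) with no overlap between conditions. The hydrophobin gene *eas* (NCU08457, chromosome II, 3570905 to 3572798), whose product forms the water-repellent rodlet layer on conidia, had 6351, 4689 and 6143 TPM at 0 mM, against 32.7, 22.02 and 34.1 TPM at 7 mM. It rose 141-fold (log2 fold change 7.12 with SE 0.179, adjusted p = 2.4e-07 by limma).

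The unannotated gene NCU06110 was the fifth by gain and, by mean TPM, the most abundant transcript of both conditions. It had 21290.0, 37404 and 31012 TPM at 0 mM, against 23343, 23238 and 26593 TPM at 7 mM, and the ranges overlapped. Its rescaled ratio was 0.906 (log2 fold change -0.19 with SE 0.285, adjusted p = 0.57 by limma), so this gain in share was not a called change, and the log2 fold change was 0.26 with TPM as deposited and 0.07 without starved replicate 1. The remaining 5 of the 10 largest gainers were 4 phosphate-starvation genes that the paper names, NCU10038 (glycerophosphodiester phosphodiesterase), *pho-2* (NCU01376, alkaline phosphatase), *pho-5* (NCU08325, phosphate permease) and NCU01045 (ribonuclease T1), and NCU10040, annotated as a hypothetical protein. NCU10040 had 3162, 4388 and 4542 TPM at 0 mM, against 121, 108 and 140.3 TPM at 7 mM, a 24.1-fold rise (log2 fold change 4.56 with SE 0.182, adjusted p = 1.2e-06 by limma).

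Of the 10 largest losses, 7 were genes of the ribosome list, 2 had no product in the tables used, and 1 was the ADP/ATP carrier gene. NCU16635, which has no product or position in the tables used, lost most and had 2269, 3472 and 3595 TPM at 0 mM, against 19046, 19020.1 and 18139.8 TPM at 7 mM. The ribosomal stalk protein gene NCU00979 (60S acidic protein P2, chromosome I, 6513544 to 6514647) had 1051, 1696 and 2008 TPM at 0 mM, against 17345, 15185 and 14866 TPM at 7 mM. The fused gene *ubi::crp-6* (NCU04553), named for ubiquitin joined to a ribosomal protein, had 1013, 1606 and 1865 TPM at 0 mM, against 14454, 14116 and 14068 TPM at 7 mM. In each of these the starved library of replicate 1 was lowest and no starved value reached the 7 mM values. The carrier gene *aac* (NCU09477), whose product exchanges ADP and ATP across the inner mitochondrial membrane, had 4873, 3124 and 3985 TPM at 0 mM, against 10416, 10442 and 10392 TPM at 7 mM and fell 3.58-fold (log2 fold change -1.86 with SE 0.161, adjusted p = 4.4e-05 by limma).

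**Figure D2:**
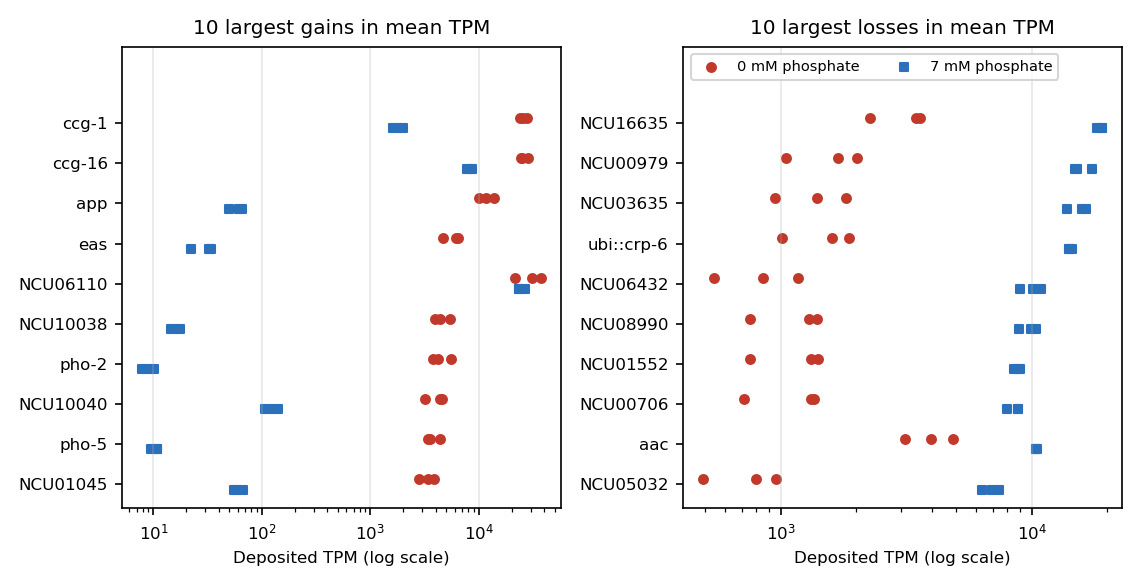
Deposited TPM on a log axis of the 10 genes with the largest gain (left panel) and the 10 with the largest loss (right panel) in mean TPM, 1 point per library, circles for 0 mM and squares for 7 mM phosphate. Only NCU06110 overlaps between conditions.

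The cytosolic ribosome list held 2.45, 3.46 and 4.08% of the TPM in the starved libraries, against 28.2, 27.8 and 26.7% in the 7 mM libraries, an 8.28-fold lower share. Starved replicate 1 was lowest, and the highest starved library was still far below every 7 mM library. Of the 81 genes, all tested, 77 were called lower at 2-fold and 70 at 4-fold, while 0 were called higher. Over all tested genes these shares were 10.2% lower at 2-fold and 3.59% at 4-fold. The list's median log2 fold change was -3.56 (interquartile range -3.72 to -3.29), beside 0.002 over all tested genes.

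Most members moved by nearly the same factor. The 4-fold lower genes ranged from 4.17-fold to 16.4-fold lower, with a median of 11.7-fold. The members annotated as 40S proteins (22, median log2 fold change -3.45) and as 60S proteins (47, median -3.60) had similar medians. The starved libraries kept an order within the class: 69 of 81 genes were lowest in starved replicate 1 and 74 were highest in starved replicate 3. The largest fold was that of NCU07547, annotated as 60S acidic protein P0, with 10.9, 6.31 and 10.1 TPM at 0 mM, against 103, 112 and 112 TPM at 7 mM, 16.4-fold lower (log2 fold change -3.90 with SE 0.156, adjusted p = 1.2e-06 by limma). Its mean of 109 TPM at 7 mM lay far below the median of 3236 of the 4-fold lower members. Unlike most members it was lowest in starved replicate 2, and whether its product belongs to cytosolic ribosomes was not checked. The 40S protein S12 gene NCU06432 was 15.8-fold lower and the 60S protein L9 gene NCU02744 15.4-fold lower.

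A small set of genes with the same kind of annotation did not follow. Of the 11 members with no 4-fold call, 7 were called lower at 2-fold only. The 40S protein S30 gene NCU06048 had 611, 689.5 and 613 TPM at 0 mM, against 568, 581 and 554 TPM at 7 mM (log2 fold change -0.28 with SE 0.088, adjusted p = 0.024 by limma), and its share was higher at 0 mM although its rescaled value was lower. Its log2 fold change was 0.17 with TPM as deposited, and it missed an adjusted p of 0.05 without starved replicate 3 (-0.27), 7 mM replicate 1 (-0.28) or 7 mM replicate 2 (-0.27). It also missed it with upper-quartile scaling (-0.23) and in the fit over all 18 libraries (-0.29). NCU04614, annotated as 60S protein L19, had 32.8, 30.1 and 29.3 TPM at 0 mM, against 15.4, 16.3 and 15.9 TPM at 7 mM (log2 fold change 0.48, limma adjusted p = 0.00015) and was the only member above 0 on the rescaled scale. A second gene with the same L19 annotation, NCU04336, had 127, 107 and 132 TPM at 0 mM, against 272, 277 and 272 TPM at 7 mM and fell 3.07-fold. The 11 exceptions lay between 15.9 and 568 mean TPM at 7 mM, and the other 70 had a median of 3236, and whether the products of the exceptions belong to cytosolic ribosomes was not checked.

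The machinery that builds ribosomes fell with them. Of 31 ribosome biogenesis genes, 29 were called lower at 2-fold and 25 at 4-fold, with a median log2 fold change of -2.62. Over all tested genes 10.2% were called lower at 2-fold and 3.59% at 4-fold. The fibrillarin gene NCU03702, an rRNA methyltransferase of the nucleolus, had 34.8, 26.1 and 50.5 TPM at 0 mM, against 341, 348 and 344 TPM at 7 mM and was 12.7-fold lower (log2 fold change -3.67 with SE 0.207, adjusted p = 5e-06 by limma). The RNA helicase genes NCU11175 (*drs-1*) and NCU05782 (*dbp-3*) were 12.6-fold and 11.03-fold lower. Outside the lists, NCU03092, annotated as a nuclear localization sequence binding protein, was the largest decrease among annotated genes that the paper does not name, with 23.9, 9.67 and 19.6 TPM at 0 mM, against 329, 334 and 338 TPM at 7 mM (25.9-fold lower, log2 fold change -4.68 with SE 0.262, adjusted p = 4.9e-06 by limma). The starved library of replicate 2 was lowest for all 4 of these genes, whereas for most ribosomal protein genes it was replicate 1.

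Genes of RNA polymerases were counted by kind, and the difference between kinds was not tested. Polymerases I and III make ribosomal and transfer RNA. Of 11 genes listed for them, 8 were called lower at 2-fold (5 with TPM as deposited) and 4 at 4-fold. Their median log2 fold change was -1.27. Over all tested genes 10.2% were called lower at 2-fold and 3.59% at 4-fold. The polymerase I subunit gene NCU01638 had 6.79, 4.64 and 7.38 TPM at 0 mM, against 42.1, 42.3 and 44.5 TPM at 7 mM and was 9.38-fold lower (log2 fold change -3.03 with SE 0.131, adjusted p = 1.6e-06 by limma). Of 8 genes of polymerase II, which makes messenger RNA, 1 was called lower, NCU05305 at 2.46-fold, beside 10.2% of all tested genes, and the median was -0.33, a sign that turned to 0.11 with TPM as deposited. The polymerase I and III list includes subunits that the annotation assigns to several polymerases.

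Other parts of the translation apparatus were lower by less than the ribosome. Of 25 translation factor genes, 16 were called lower and 0 higher, beside 10.2% of all tested genes in each direction (median -1.10). With TPM as deposited only 2 were called lower, and the median was -0.66. The elongation factor gene *tef-1* (NCU02003) had 3775, 3776 and 3942 TPM at 0 mM, against 7143, 7198 and 7364 TPM at 7 mM and was 2.58-fold lower, and *eif5A* (NCU05274) had 2355, 2476 and 2582 TPM at 0 mM, against 5351, 5293 and 5068 TPM at 7 mM and was 2.89-fold lower. Both were among the most abundant transcripts and did not overlap between conditions.

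Aminoacyl-tRNA synthetases, which charge tRNAs, split. Of 21 genes, 6 were called lower (3 with TPM as deposited) and 2 higher, beside 10.2% of all tested genes in each direction (median -0.63). The lysyl-tRNA synthetase gene NCU00931 was 6.33-fold lower and *cyt-18* (NCU03030), a mitochondrial tyrosyl-tRNA synthetase that also helps introns splice, was 5.60-fold lower. The aspartyl-tRNA synthetase gene NCU07082 had 54.3, 49.2 and 49.8 TPM at 0 mM, against 8.85, 8.52 and 8.67 TPM at 7 mM and rose 4.31-fold (log2 fold change 2.00 with SE 0.051, adjusted p = 2.6e-07 by limma), while NCU00915, also annotated as aspartyl-tRNA synthetase and the most abundant of the list, had 129.7, 233 and 155 TPM at 0 mM, against 215, 253 and 259 TPM at 7 mM (log2 fold change -0.97, limma adjusted p = 0.0066), with overlapping ranges and no 2-fold call. The alanyl-tRNA synthetase gene NCU00535 rose 2.10-fold.

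Mitochondrial genes did not move as 1 group. The mitochondrial ribosome has its own set of proteins, and 19 of 21 genes listed for it were called lower (median -1.60), 11 with TPM as deposited, but only 2 at 4-fold. Over all tested genes 10.2% were called lower at 2-fold and 3.59% at 4-fold. Of 21 genes of the protein import machinery, 13 were called lower and none higher, and all 21 passed the adjusted p in the downward direction, beside 35.1% of all tested genes. The small Tim chaperone gene *tim8* (NCU11311) had 88.1, 87.2 and 96.3 TPM at 0 mM, against 316, 329 and 317 TPM at 7 mM and was 4.83-fold lower, and the channel gene *tim23* (NCU00371) was 4.38-fold lower. The largest fold was that of the inner membrane translocase gene *tim54* (NCU07295), 5.07-fold lower.

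Within the respiratory chain, complex I stood apart from the complexes that follow it. None of the 29 genes of complex I, the NADH:ubiquinone oxidoreductase, was called at 2-fold, 11 passed the adjusted p in the upward direction and 1 in the downward direction, beside 34.3% and 35.1% of all tested genes, and the median was 0.13. For complexes II to IV, all 8 genes listed passed in the downward direction with no 2-fold call, and the median was -0.66. For ATP synthase, all 11 passed in the downward direction, 2 at 2-fold but 0 with TPM as deposited, with a median of -0.75. The signs of these 3 medians were the same under the 4 scalings. As shares of the library, complex I held 1.57, 1.48 and 1.54% at 0 mM and 1.04, 1.03 and 1.06% at 7 mM, and ATP synthase held 1.10, 0.899 and 0.995% at 0 mM and 1.32, 1.33 and 1.38% at 7 mM.

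These respiratory shares did not overlap between conditions and lay in opposite directions. The most abundant ATP synthase gene was *oli* (NCU02250), for the proteolipid of the membrane rotor, with 5119.9, 3895 and 4366 TPM at 0 mM, against 6407, 6539.6 and 6772 TPM at 7 mM, 2.02-fold lower (log2 fold change -1.02 with SE 0.121, adjusted p = 0.00024 by limma). The subunit G gene NCU00644 was 2.43-fold lower. The difference between complexes was not tested. Transcripts of the mitochondrial genome held 0.0397, 0.05 and 0.0399% at 0 mM and 0.0345, 0.0291 and 0.0402% at 7 mM, with overlapping ranges and no call among 19 tested genes, and poly(A) enrichment selects against RNA of this kind.

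Biosynthetic pathways were mostly lower, with exceptions inside them. Of 51 amino acid synthesis genes, 27 were called lower (18 with TPM as deposited), 2 higher, and the median was -1.14. Over all tested genes 10.2% were called in each direction. The lysine gene *lys-3* (NCU03010) had 25.7, 27.5 and 24.8 TPM at 0 mM, against 115, 106 and 109.9 TPM at 7 mM and was 5.77-fold lower. The arginine gene *arg-3* (NCU02677) was 5.07-fold lower and *ilv-2* (NCU03608), named for isoleucine and valine, was 4.93-fold lower (log2 fold change -2.31 with SE 0.097, adjusted p = 1.5e-06 by limma). Against this, *ilv-5* (NCU02397), a second gene of that name, had 414, 426 and 405 TPM at 0 mM, against 56.2, 60.9 and 64.4 TPM at 7 mM and rose 5.03-fold (log2 fold change 2.31 with SE 0.067, adjusted p = 4.7e-07 by limma). NCU08771, annotated as acetolactate synthase, the enzyme that opens isoleucine and valine synthesis, had 57.6, 73.8 and 61.2 TPM at 0 mM, against 9.84, 11.3 and 11.1 TPM at 7 mM and rose 4.40-fold.

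The most abundant gene of the list, *met-8* (NCU06512), of methionine synthesis, had 2625, 1838 and 2148 TPM at 0 mM, against 2181, 2278 and 2327 TPM at 7 mM, with overlapping TPM ranges (log2 fold change -0.50, limma adjusted p = 0.0069). Its log2 fold change was -0.05 with TPM as deposited and did not pass. The transcription factor gene *cpc-1* (NCU04050), the cross-pathway activator of amino acid synthesis genes, had 1532, 1449 and 1402 TPM at 0 mM, against 1856, 1999 and 1927 TPM at 7 mM (1.80-fold lower, log2 fold change -0.85 with SE 0.076, adjusted p = 5.3e-05 by limma), with no 2-fold call. *cpc-2* (NCU05810), whose product is a ribosome-associated protein of the RACK1 type, had 123, 193 and 233 TPM at 0 mM, against 2021, 2031 and 1996 TPM at 7 mM and was 14.9-fold lower, within the range of the ribosomal protein genes. Sulfur assimilation genes had 6 called lower of 17 tested (median -0.92), beside 10.2% of all tested genes, and 1 with TPM as deposited. The most abundant member of this list, *cys-18* (NCU07930), had 2592, 1908 and 2261 TPM at 0 mM, against 1212, 1257 and 1222 TPM at 7 mM (log2 fold change 0.41, limma adjusted p = 0.0092).

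Genes of nucleotide and vitamin synthesis were counted next, beside 10.2% of all tested genes called in each direction. Of 7 purine synthesis genes, 6 were called lower (median -1.15), although with TPM as deposited only 1 was, with a median of -0.71. The adenine gene *ad-5* (NCU02629) was 3.33-fold lower and the gene *gua-3* (NCU02325) 2.70-fold lower. In pyrimidine synthesis 3 of 7 were called lower (1 with TPM as deposited), led by *pyr-3* (NCU08287), which opens the pathway, at 4.34-fold, while *pyr-4* (NCU03488), the orotidine decarboxylase gene, had 481, 373 and 409 TPM at 0 mM, against 205, 213 and 206 TPM at 7 mM (log2 fold change 0.56, limma adjusted p = 0.00041). Of 16 genes of NAD and vitamin synthesis, 4 were called lower and 1 higher, and the median of -0.41 became 0.02 with TPM as deposited. Both pyridoxine (vitamin B6) genes were lower: *pdx-1* (NCU06550) had 642, 878 and 793 TPM at 0 mM, against 2701, 2772 and 2777 TPM at 7 mM and fell 4.85-fold, and *pdx-2* (NCU06549) fell 4.53-fold. The riboflavin gene *rib-3* (NCU01449) had 362, 425 and 391.8 TPM at 0 mM, against 74.7, 74.5 and 75.2 TPM at 7 mM and rose 3.86-fold (log2 fold change 1.93 with SE 0.09, adjusted p = 2.2e-06 by limma).

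Fatty acid metabolism split by direction of the pathway. Of 9 synthesis and desaturation genes, 3 were called lower and none higher (median -0.66). Of 17 oxidation genes 6 were called higher and none lower (median 0.67). Over all tested genes 10.2% were called in each direction. The counts of the 2 lists were 1 lower in synthesis and 12 higher in oxidation with TPM as deposited. The desaturase gene NCU09497 had 95.3, 54.02 and 73.5 TPM at 0 mM, against 309.8, 329 and 306 TPM at 7 mM and fell 5.83-fold (log2 fold change -2.55 with SE 0.16, adjusted p = 8.4e-06 by limma). The acetyl-CoA carboxylase gene NCU08535, for the committing step of synthesis, fell 2.27-fold. The acyl-CoA dehydrogenase genes *acd-2* (NCU08924) and *acd-1* (NCU02287), which open each round of oxidation, rose 3.35-fold and 3.32-fold, and the ketoacyl-CoA thiolase gene NCU04796 rose 2.97-fold. *acd-2* had 183, 177 and 181 TPM at 0 mM, against 40.7, 39.2 and 38.4 TPM at 7 mM, with libraries of a condition close together.

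None of 20 peroxisome biogenesis genes was called at 2-fold by limma and the ratio of means, beside 10.2% of all tested genes in each direction. With TPM as deposited 2 were called. By adjusted p alone 4 were higher and 4 lower (median 0.07), beside 34.3% and 35.1% of all tested genes. The most abundant of them, *pex11* (NCU04802), had 218, 242 and 235 TPM at 0 mM, against 89.7, 91.9 and 90.7 TPM at 7 mM (log2 fold change 0.90, limma adjusted p = 4.4e-05), short of 2-fold.

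**Figure D3:**
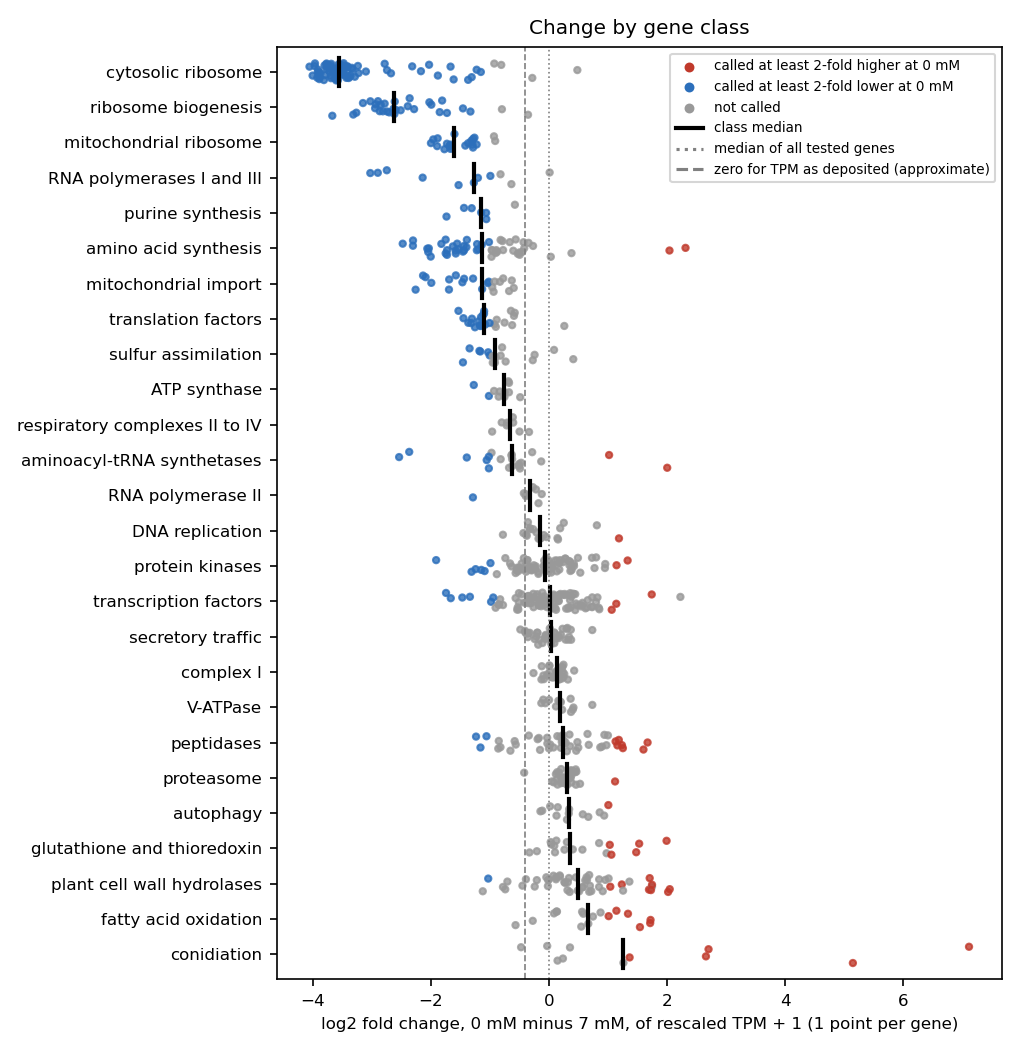
Log2 fold change, 0 mM minus 7 mM, of rescaled TPM + 1 for the tested genes of 26 classes, 1 point per gene, coloured by 2-fold call, with the class median as a black bar. The dotted line is the median of all tested genes and the dashed line approximates the zero of TPM as deposited. The cytosolic ribosome median is -3.56 and the conidiation median 1.26.

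Genes that break down cell material were mostly higher, and by small factors. Of 33 proteasome genes, 26 passed the adjusted p in the upward direction and 1 in the downward direction, beside 34.3% and 35.1% of all tested genes, and 1 was called at 2-fold (median 0.31). Its share of the library was 1.20, 1.14 and 1.16% at 0 mM and 0.672, 0.693 and 0.691% at 7 mM. The member below 0 was *rpn-4* (NCU01640), which carries the name of a proteasome regulator in yeast. The 1 called gene, NCU11053 of the regulatory particle, had 164, 151 and 149 TPM at 0 mM, against 49.2, 51.9 and 53.99 TPM at 7 mM and rose 2.19-fold.

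In autophagy, by which cell contents reach the vacuole, 8 of 13 genes passed in the upward direction and 1 in the downward direction, beside the same 34.3% and 35.1% (median 0.34). The gene *atg-8* (NCU01545), for the ubiquitin-like protein of the autophagosome membrane, had 1594, 1479 and 1566 TPM at 0 mM, against 619, 591 and 566 TPM at 7 mM, short of a 2-fold call at 1.91-fold (log2 fold change 0.94 with SE 0.073, adjusted p = 2.6e-05 by limma). The initiating kinase gene *apg-1* (NCU00188) rose 2.07-fold and was the 1 autophagy gene called, against 5 with TPM as deposited. Of 14 genes of the V-ATPase, the proton pump of the vacuole, 9 passed in the upward direction, beside 34.3% of all tested genes, and none at 2-fold (median 0.20).

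Peptidases were mixed, with 7 called higher and 3 lower of 47, beside 10.2% of all tested genes in each direction. With TPM as deposited 13 were higher and 0 lower. Their summed share was 0.787, 0.75 and 0.77% at 0 mM and 0.38, 0.37 and 0.364% at 7 mM. The serine protease gene NCU00673 had 1406, 1340.1 and 1324 TPM at 0 mM, against 463, 432 and 437 TPM at 7 mM and rose 2.24-fold, and it was the most abundant of the list. Of 18 glutathione and thioredoxin genes, 5 were called higher and none lower (median 0.35), beside the same 10.2%. They were led by the glutathione transferase gene NCU00549 with 216, 255 and 249 TPM at 0 mM, against 40.5, 44.1 and 45.7 TPM at 7 mM, a 4.06-fold rise (log2 fold change 1.99 with SE 0.1, adjusted p = 3e-06 by limma).

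Enzymes against plant cell walls, which this fungus secretes when it lacks simple sugars, were counted as a class. Of 52 tested genes of 62 listed, 8 were called higher, 5 of them at 4-fold, and 1 lower (14 and 0 with TPM as deposited). Over all tested genes 10.2% were called in each direction at 2-fold, and 3.75% were called higher at 4-fold. The median log2 fold change of the class was 0.50, and 0.87 with TPM as deposited, where 1405 of all tested genes were called higher. The beta-xylosidase gene NCU09652 had 36.6, 41.6 and 35.2 TPM at 0 mM, against 5.41, 6.73 and 6.02 TPM at 7 mM and rose 4.58-fold, and NCU01900, annotated xylosidase/arabinosidase, rose 4.40-fold. The xylanase regulator gene *xlr-1* (NCU06971), which the paper names, rose 4.21-fold and was the only 4-fold call among 95 transcription factor genes of the list. The whole class held 0.104, 0.102 and 0.106% of the TPM at 0 mM and 0.0629, 0.0628 and 0.0604% at 7 mM.

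**Figure D4:**
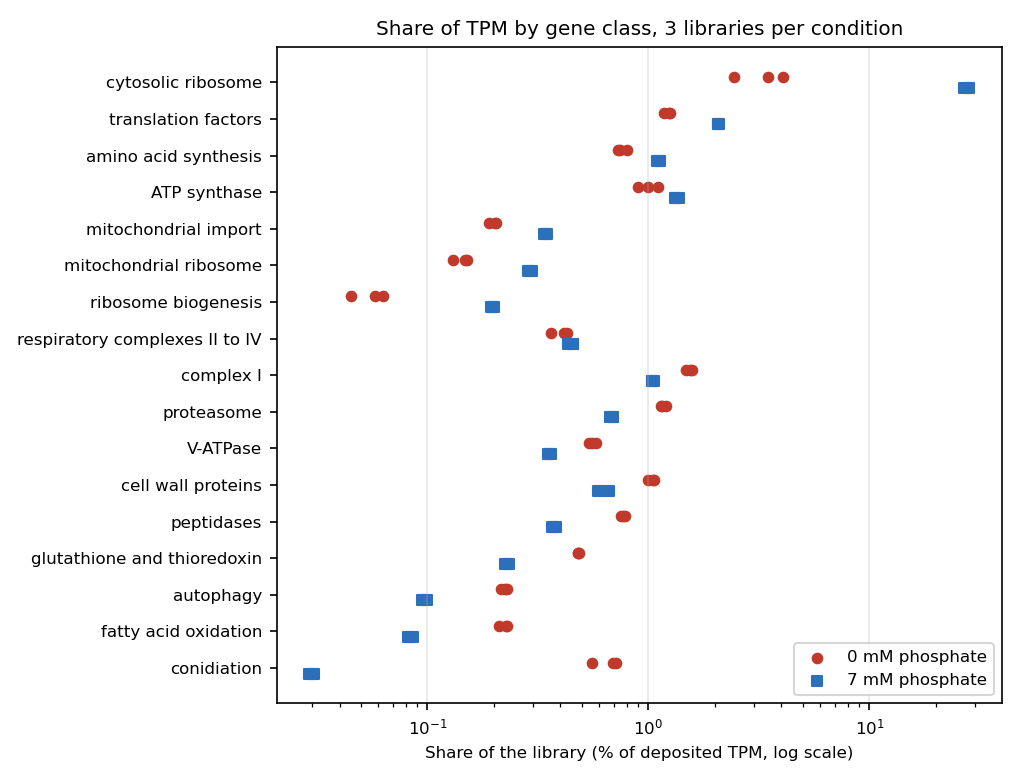
Share of each library (% of deposited TPM, log axis) held by 17 gene classes, 1 point per library, circles for 0 mM and squares for 7 mM phosphate. The cytosolic ribosome holds 2.45% to 4.08% in starved libraries and 26.7% to 28.2% in 7 mM libraries, and the conidiation list 0.556% to 0.711% and 0.0293% to 0.0306%.

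The cell type on the labels is mycelium, and genes of conidiation, the making of asexual spores, were read as markers of the other cell type. Summed over the list, they had 5562 to 7110 TPM at 0 mM and 292.6 to 305.7 TPM at 7 mM, and none was at 0 in every library of a condition. Of 12 such genes, 11 were tested, 5 were called higher and none lower, beside 10.2% of all tested genes in each direction. Their summed share was 0.711, 0.556 and 0.693% at 0 mM, against 0.0302, 0.0293 and 0.0306% at 7 mM, 21.8-fold higher at 0 mM, and most of it was *eas*. Next to *eas*, *con-10* (NCU07325, chromosome IV, 4364944 to 4365763), a gene expressed in developing conidia, had 227, 194 and 221 TPM at 0 mM, against 4.16, 3.64 and 2.99 TPM at 7 mM and rose 43.5-fold (log2 fold change 5.15 with SE 0.107, adjusted p = 1.5e-07 by limma). *con-8* (NCU09235) had 66.0, 143 and 109.9 TPM at 0 mM, against 8.91, 10.2 and 14.7 TPM at 7 mM and rose 7.00-fold, with starved replicate 1 lowest. *con-6* (NCU08769), which the paper names, rose 7.56-fold and *ecd-2* (NCU08173) 2.75-fold.

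The remaining genes of spore formation, *con-13*, NCU03184 (FlbC), *chc-1* and *mcb* among them, had no call. *con-13* rose 4.35-fold (limma adjusted p = 0.0026), but its means of 3.73 TPM at 0 mM and 0.634 TPM at 7 mM were under the 10 TPM minimum. NCU03184 passed the adjusted p at 1.28-fold higher (0.0023 by limma), and *chc-1* (0.23) and *mcb* (0.64) did not pass. *csp-1* (NCU02713), for separation of conidia, had 41.0, 52.4 and 43.8 TPM at 0 mM, against 26.5, 29.8 and 28.2 TPM at 7 mM (log2 fold change 0.24, limma adjusted p = 0.11). It passed an adjusted p of 0.05 without starved replicate 1 (0.35), with TPM as deposited (0.67), with the total outside the ribosome list (0.27) and with the replicate block (0.24). The gene *ecd-1* (NCU06302) had 2.70, 7.57 and 3.51 TPM at 0 mM, against 4.26, 4.10 and 5.74 TPM at 7 mM, with overlapping ranges (limma adjusted p = 0.21), and passed in the downward direction without starved replicate 2 (log2 fold change -0.83). The pigment gene NCU05821 stayed under 1 TPM in all 6 libraries and was not tested. The part of these markers in the other class results was not tested, and whether spores formed in the cultures was not recorded in the sources used here.

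**Figure D5:**
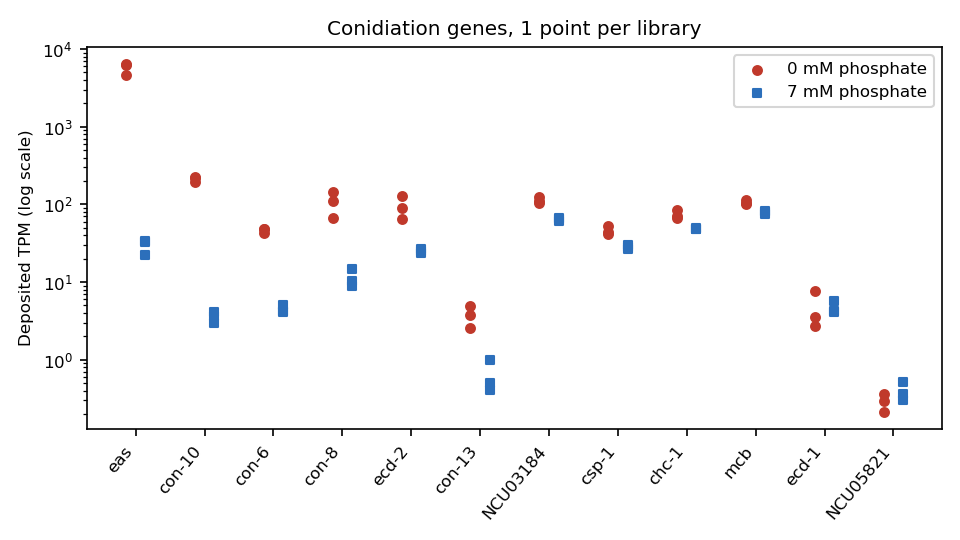
Deposited TPM on a log axis of the 12 conidiation genes, ordered by log2 fold change, 1 point per library, circles for 0 mM and squares for 7 mM phosphate. *eas* spans 4689 to 6351 TPM at 0 mM and 22.0 to 34.1 TPM at 7 mM, while *ecd-1* and NCU05821 at the right overlap between conditions.

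Large regulatory and housekeeping classes kept a median near that of all genes. Of 76 protein kinase genes, 2 were called higher and 6 lower, beside 10.2% of all tested genes in each direction (median -0.06). With TPM as deposited, 6 kinase genes were higher and 1 lower, and the median was 0.38. Of 95 transcription factor genes, 3 were called higher and 6 lower (median 0.02), against 14 higher and 3 lower with TPM as deposited. No gene of secretory traffic (40 tested), hyphal fusion (14) or the COP9 signalosome (7) was called at 2-fold by limma with the ratio of means. By adjusted p alone, 34.3% of all tested genes were higher and 35.1% lower. By this measure 10 were higher and 12 lower in secretory traffic, 3 and 3 in hyphal fusion, and 6 and 0 in the signalosome. The cytoskeleton list had 2 of 43 called lower and none higher, and its median of -0.13 became 0.31 with TPM as deposited. Its most abundant gene, *act* (NCU04173), for actin, had 2894, 2159 and 2317 TPM at 0 mM, against 1663, 1605 and 1687 TPM at 7 mM, a rescaled ratio of 1.09 (limma adjusted p = 0.36), and it passed with TPM as deposited (log2 fold change 0.56).

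The remaining lists were short, and over all tested genes 10.2% were called in each direction. Cell wall protein genes had 3 called higher and 1 lower of 25, and their share was 1.06, 1.05 and 0.998% at 0 mM and 0.59, 0.61 and 0.661% at 7 mM. Their counts were 9 higher and 0 lower with TPM as deposited. Phospholipid synthesis had 1 higher and 2 lower of 6, and ergosterol synthesis 0 higher and 1 lower of 8. Cytochrome P450 genes had 3 higher and 1 lower of 14, ABC transporters 1 and 2 of 12, and amino acid permeases 1 and 3 of 12 (3 and 0 with TPM as deposited). Ubiquitin ligation had 3 higher and 1 lower of 30, and DNA replication 1 higher and 0 lower of 21.

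In the next classes single genes were called, beside 10.2% of all tested genes in each direction. DNA repair and chromatin modifiers held fewer calls than that share. Of 34 DNA repair genes, 1 was called, *mus-18* (NCU08850), for an endonuclease of ultraviolet damage repair, with 58.4, 34.7 and 40.6 TPM at 0 mM, against 5.22, 6.23 and 6.36 TPM at 7 mM, a 5.46-fold rise (log2 fold change 2.27 with SE 0.156, adjusted p = 1.3e-05 by limma). Of 41 chromatin modifier genes, 1 was called (4 with TPM as deposited, where the median of -0.26 became 0.17), *set-6* (NCU09495), named for its SET domain, with 22.9, 35.1 and 27.9 TPM at 0 mM, against 4.57, 6.25 and 6.03 TPM at 7 mM, a 3.76-fold rise (log2 fold change 1.74 with SE 0.187, adjusted p = 0.00014 by limma). Of 13 spliceosome genes, 2 were called lower: NCU01612, for the RNA helicase PRP43, at 5.34-fold, and NCU01331, which is annotated for both spliceosomal and nucleolar particles and was 5.19-fold lower.

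Among annotated genes that the paper does not name, the largest rises after *app* and *eas* were up to 86.8-fold, and *con-10* was 1 of them. The FAD-dependent oxidoreductase gene NCU05069 had 229.6, 265 and 228 TPM at 0 mM, against 1.84, 1.89 and 2.38 TPM at 7 mM and rose 86.8-fold (log2 fold change 5.94 with SE 0.106, adjusted p = 7.9e-08 by limma). The catalase gene *cat-2* (NCU05770), for an enzyme that destroys hydrogen peroxide, had 322, 349 and 305 TPM at 0 mM, against 6.92, 7.48 and 6.72 TPM at 7 mM and rose 33.8-fold (log2 fold change 4.92 with SE 0.079, adjusted p = 6.1e-08 by limma). NCU04197, annotated as CipC, rose 46.0-fold, with 337, 728 and 569.9 TPM at 0 mM, against 9.80, 7.80 and 8.70 TPM at 7 mM and starved replicate 1 lowest. Further members of this set were a short chain dehydrogenase gene (NCU02097, 38.3-fold), the *myo*-inositol oxygenase gene NCU08856 (35.4-fold), a secreted protein gene (NCU02338, 30.2-fold) and a glucan 1,3-beta-glucosidase gene (NCU09904, 28.5-fold). In the other direction 8 of the 10 were genes annotated as ribosomal proteins or *cpc-2*, and the others were NCU03092 and *rbg-40* (NCU07722), 21.5-fold lower with 2.39, 2.80 and 1.57 TPM at 0 mM, against 34.5, 37.7 and 34.3 TPM at 7 mM.

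Calls were also counted by abundance and annotation. Of 169 tested genes that averaged 1000 TPM or more over the 6 libraries, 27 were called higher and 79 lower, and without the ribosome list 27 were higher and 21 lower of 111. Among 1092 genes from 100 to 300 TPM, 142 were called higher and 149 lower. Genes with neither a product nor a symbol in the tables used held 37.3, 37.9 and 37.5% of the TPM at 0 mM, against 29.0, 29.2 and 29.5% at 7 mM, and of 4703 tested 477 were called higher and 376 lower, beside 10.2% of all tested genes in each direction. Shares also moved between chromosomes: genes of chromosome III held 9.08, 8.92 and 9.15% at 0 mM and 13.6, 13.6 and 13.2% at 7 mM, and genes of chromosome IV 14.2, 13.8 and 13.9% at 0 mM and 8.90, 9.001 and 9.01% at 7 mM. The class lists describe only the annotated part of the response, and 1139 genes fell in at least 1 list.

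The same genotype was starved for the same time in Experiment 2, which was read at another centre and on another platform, and the values of the 2 experiments were not alike. The cytosolic ribosome list held 15.8 ± 2.45% of the TPM in starved wild type of Experiment 2, against 3.33 ± 0.822% in starved wild type and 27.6 ± 0.773% in 7 mM wild type of Experiment 1 (mean ± SD, n = 3 each). The conidiation list held 0.0317 ± 0.00411% in starved wild type of Experiment 2, against 0.653 ± 0.0847% in starved and 0.03 ± 0.000677% in 7 mM wild type of Experiment 1. Starved libraries of Experiment 2 thus lay beside the 7 mM libraries for this list. Their mean shares of ATP synthase (1.78%), amino acid synthesis (1.395%), translation factors (2.20%), V-ATPase (0.587%) and the mitochondrial genome (0.112%) exceeded both groups of Experiment 1. Plant cell wall hydrolases (0.045%) lay below both. Between them lay complex I (1.08%), proteasome, autophagy, peptidases, fatty acid oxidation, glutathione and thioredoxin, mitochondrial ribosome and ribosome biogenesis. In *mat a* wild type starved for 12 h in Experiment 3, the ribosome list held 7.31 ± 0.689% and the conidiation list 0.627 ± 0.155%.

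Single genes were also read in starved wild type of Experiment 2. There, *eas* had 83.0, 53.9 and 49.1 TPM and *app* 171, 66.9 and 82.3 TPM, each above every 7 mM library and far below every starved library of Experiment 1. The largest gainer of Experiment 1, *ccg-1*, had 3852, 2649 and 2895 TPM there, also above every 7 mM library and far below every starved library of Experiment 1. The second, *ccg-16*, had 4743, 3310 and 3711 TPM there, below every 7 mM library of Experiment 1. The ADP/ATP carrier gene *aac* had 9858, 12114 and 11796 TPM in starved wild type of Experiment 2. The phosphate-starvation genes were also lower than in the starved libraries of Experiment 1, by unequal amounts. NCU10038 had 1431, 738 and 789 TPM in Experiment 2, beside 5374, 3926 and 4368 TPM in starved libraries of Experiment 1. NCU01045 had 626, 365 and 421 TPM, beside 3837, 2812 and 3371 TPM, and *pho-5* had 1785, 1493 and 1354 TPM, beside 4405, 3363 and 3575 TPM. For these 3 genes the experiments did not overlap, whereas for *pho-2* they did, with 4082, 2843 and 2439.9 TPM in Experiment 2, beside 5509, 3795 and 4167 TPM in Experiment 1. Experiments 1 and 2 also differ in read length and centre, so experiment, platform and culture cannot be told apart, and no test was made across them.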

How the data were processed

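Poly(A) RNA was sequenced from 3 starved and 3 phosphate-fed cultures. The authors quantified transcripts with Salmon (version 1.4.0) against the *N. crassa* OR74A version 12 annotation and deposited TPM, which are the values used here. Their own differential test used counts, which were not used here. TPM of 10697 transcripts were summed to 9774 genes (8.4% have several transcripts).

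Library factors (median of ratios) were 1.13 to 1.23 at 0 mM and 0.849 to 0.868 at 7 mM. The rescaled TPM with a pseudocount of 1 were fitted with limma (version 3.58.1, R 4.3.3) on the 6 libraries, with Benjamini-Hochberg adjustment over all genes that averaged 1 TPM or more at 0 mM or 7 mM. Folds are ratios of mean rescaled TPM, log2 fold changes are on the log2(TPM + 1) scale and understate the change of low genes, and p-values measure the spread between these cultures. On simulated data with 200 changed genes, 98 of 100 genes changed 8-fold were called at 4-fold and 99 of 100 changed 3-fold at 2-fold, with 1 false call among 8008 genes at 2-fold. With the ribosomal genes also cut 8-fold, these counts were 100 of 100 and 99 of 100, with 0 false calls at 2-fold. Outside the ribosomal genes both runs changed far fewer genes than were called here. The noise was drawn on the scale that was fitted, so they do not give the error rate of these calls.

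Products were held for 3449 of the 9774 genes, from the supplementary datasets of the paper that reported these data. Symbols were held for 1118, from RefSeq tables for assembly NC12. From both, 44 classes with 1139 genes were made by name. The members and lists were chosen with earlier results of these data known. Named genes are the 10 largest gains and losses in TPM, the 10 largest called folds in each direction among annotated genes the paper does not name, and for each class its most abundant and most changed genes, and others were chosen after their values were seen. Alternatives were other scalings, pseudocount, filter, fold measure, robust fit, all 18 libraries, a replicate block and each library left out.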

Additional observations from a re-analysis of the deposited data

How the results depend on the processing

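With TPM as deposited, 483 genes were called 4-fold higher, 1405 were 2-fold higher and 506 were 2-fold lower, and the cytosolic ribosome median was -3.12. The median of all tested genes was 0.41 under this scaling. With no filter on low values and no TPM minimum, 490 genes were 4-fold higher and 1329 were 2-fold higher. Without the cytosolic ribosome list, the starved libraries needed on average 23.3 more genes for 50% of the TPM (195 with it) and 46.3 more for 90% (588 with it), and the share of the 100 most abundant genes differed by -1.92 percentage points (-12.6 with it). The log2 fold change of NCU06110 was 0.26 with TPM as deposited, and with each library left out it ranged from -0.39 without starved replicate 2 to 0.07 without starved replicate 1, and that of NCU06048 was 0.17 with TPM as deposited. With the main scaling and all 6 libraries both were negative.

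Leaving out each library in turn gave 604 to 632 genes called at 4-fold (300 to 326 higher and 298 to 313 lower) and 1692 to 1716 at 2-fold (823 to 882 higher and 834 to 875 lower). The cytosolic ribosome median ranged over -3.75 to -3.30 and its share difference over -24.7 to -23.8 percentage points. The difference in genes for 50% of the TPM was 182 to 207, in genes for 90% 547 to 615, and in the share of the 100 most abundant genes -13.2 to -12.0. The share of the 10 most abundant genes differed by -1.05 to 0.298 percentage points, a change of sign in a value whose ranges overlap.

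With the replicate block, 616 genes were called at 4-fold and 1713 at 2-fold. Same-numbered libraries of the conditions did not deviate together (r = 0.0469, 0.032 and -0.0463 across genes). Whether the numbers pair the cultures is not stated in the labels, and correlations this low cannot decide it. The pseudocount of 0.1, the robust fit, limma's own fold change, upper-quartile scaling, the total outside the ribosome list and the fit over all 18 libraries kept each count of calls within 1.5 times the main one. TPM carry no depth, so counting error behind low values is unknown.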
